A study of Drosophila melanogaster with 12 samples.

Results

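The 10 genes described here are the ecdysone receptor and its response genes br, EcR, usp, Eip75B, Eip74EF, ftz-f1, Hr3, Hr4, Eip93F and Eip78C, taken by symbol from the 17617 genes measured. They were measured by 3′ mRNA sequencing in progenitor cells sorted by their green fluorescent protein (GFP) from the midguts of mated adult female Drosophila melanogaster. All flies carried the esgtsGFP driver, a temperature-sensitive system that marks midgut stem cells and their immediate daughters with GFP and drives constructs in them. Control flies came from the cross to w1118 and had no RNA interference construct, while trxRNAi flies carried 1 construct against trithorax (UAS-trxRNAi, BDSC#33703), which encodes a histone methyltransferase. Females 3 to 4 days old were moved to 29 °C for 7 days, and for the last 48 h their food was 5% sucrose or 3% DSS (dextran sulfate sodium), which injures the gut lining. The 4 groups, control sucrose, control DSS, trxRNAi sucrose and trxRNAi DSS, held 3 libraries each.

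Ecdysone is the steroid hormone that times insect moults and metamorphosis. Its active form binds a dimer of the nuclear receptors EcR and Ultraspiracle (encoded by usp), which then switches on early genes such as br, Eip74EF and Eip75B, whose products are transcription factors that act on later genes. In adult females the hormone is also made after metamorphosis, and in midgut progenitors EcR, usp, Eip75B and br are known to take part in the growth of the gut after mating.

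The 10 genes were chosen by name with their values in the 4 groups already known, the pattern of br above all. Those values, and the differences between groups, are therefore given as a description. The linear model was fitted to the 10 genes along with all others, but its p-values are printed only for genes outside the set. For the 10 genes, only which of them were past the threshold is given, and nothing is read from that. Values are the deposited ones, read counts that the authors multiplied by 1 factor per library and rounded. A difference is that of the group means of log2(value + 2), given with its standard error (SE) from a linear model (limma) fitted to the 12 libraries. A gene was tested where 3 or more libraries had a value of 10 or more, which held for 8399 genes and all of the 10. Eip78C met this filter only through 3 libraries of the DSS groups.

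Value totals lay between 5362337 and 6520981 per library. The RNAi target trx (FBgn0003862) had values of 1114, 1217 and 1313 in control sucrose and of 668, 667 and 448 in trxRNAi sucrose, and fell there (-1.05 ± 0.19, limma adjusted p = 0.00356). In the libraries labelled control DSS it had 841, 1041 and 652, and in those labelled trxRNAi DSS 715, 758 and 808, so that the ranges overlapped and the difference of -0.13 ± 0.19 did not pass (adjusted p = 0.772). Under DSS the target therefore gave no check of the labels, and every group below is named only as its libraries are labelled. Every direction given below, between genotypes or between feeds, rests on those labels. From sucrose to DSS trx differed by -0.55 ± 0.19 in control (limma adjusted p = 0.161) and by 0.38 ± 0.19 in trxRNAi (limma adjusted p = 0.458). Its genotype by feed interaction passed (0.92 ± 0.27, limma adjusted p = 0.0416). In trxRNAi DSS trx differed from control sucrose by -0.67 ± 0.19.

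Among 8 progenitor markers in the files none was at 0 in any group, and their summed value took between 0.0486 and 0.101% of a library. Enteroendocrine markers, 8 genes of the hormone-secreting cells of the gut, took between 0.289 and 0.468% in the control libraries and between 0.0373 and 0.109% in the libraries labelled trxRNAi. For 7 of these 8 genes all 6 libraries labelled trxRNAi lay below all 6 control libraries, the exception being pros. The share of all tested genes with that order was not computed. Enterocyte markers took between 0.0467 and 0.167% of a library, visceral muscle markers at most 0.00281% and hemocyte markers at most 0.000293%. In such bulk samples fewer cells of a type and less RNA per cell cannot be told apart.

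The gene br (broad, FBgn0283451, chromosome X, 1575132 to 1664869, plus strand, in dm6 coordinates) encodes a family of zinc finger transcription factors with a BTB domain that specify the pupal stage. Its values were 73, 32 and 53 in control sucrose, 322, 363 and 326 in control DSS, 411, 360 and 429 in trxRNAi sucrose, and 114, 59 and 63 in trxRNAi DSS. The 6 libraries of the middle pair of groups all stood above 300, and none of the other 6 exceeded 114. In order of level, trxRNAi sucrose (400 ± 35.8, SD, n = 3) and control DSS (337 ± 22.6) overlapped, then came a gap, and trxRNAi DSS (78.7 ± 30.7) and control sucrose (52.7 ± 20.5) overlapped again.

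On the log2 scale of value plus 2, br was higher by 2.95 ± 0.27 in trxRNAi than in control under sucrose, a 7.72-fold difference. Between feeds in control libraries, br was higher by 2.70 ± 0.27 under DSS, or 6.52-fold. Both directions turned around in the libraries labelled trxRNAi DSS, where br was 4.39-fold lower than in control DSS (-2.13 ± 0.27) and 5.19-fold lower than in trxRNAi sucrose (-2.38 ± 0.27). The difference between trxRNAi sucrose and control DSS was 0.24 ± 0.27 with a 95% interval from -0.33 to 0.82. That between trxRNAi DSS and control sucrose was 0.57 ± 0.27, from -0.0046 to 1.15. In 2.42% of tested genes the 6 libraries of control DSS and trxRNAi sucrose all stood above the other 6, as they did for br and for Hr3, and for no other of the 10 genes. In a further 1.87% of genes those 6 libraries all stood below. The annotation gives br 16 transcripts with 9 starts and 6 ends, and the deposited values do not separate them.

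Hr3 (FBgn0000448, chromosome 2R, 10203995 to 10237348, minus strand), an orphan nuclear receptor that represses early ecdysone genes and induces ftz-f1 at metamorphosis, had the same split of the groups into pairs. Hr3 stood at 69, 58 and 39 in control sucrose, 134, 144 and 156 in control DSS, 181, 115 and 120 in trxRNAi sucrose and 52, 43 and 55 in trxRNAi DSS. Within each pair the ranges overlapped, and between the pairs they did not. Under sucrose Hr3 was higher in trxRNAi by 1.30 ± 0.25, or 2.46-fold, and under DSS it was lower by 2.83-fold in the libraries labelled trxRNAi (-1.50 ± 0.25). From sucrose to DSS the Hr3 difference was 1.39 ± 0.25 in control and -1.41 ± 0.25 in trxRNAi.

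**Figure D1:**
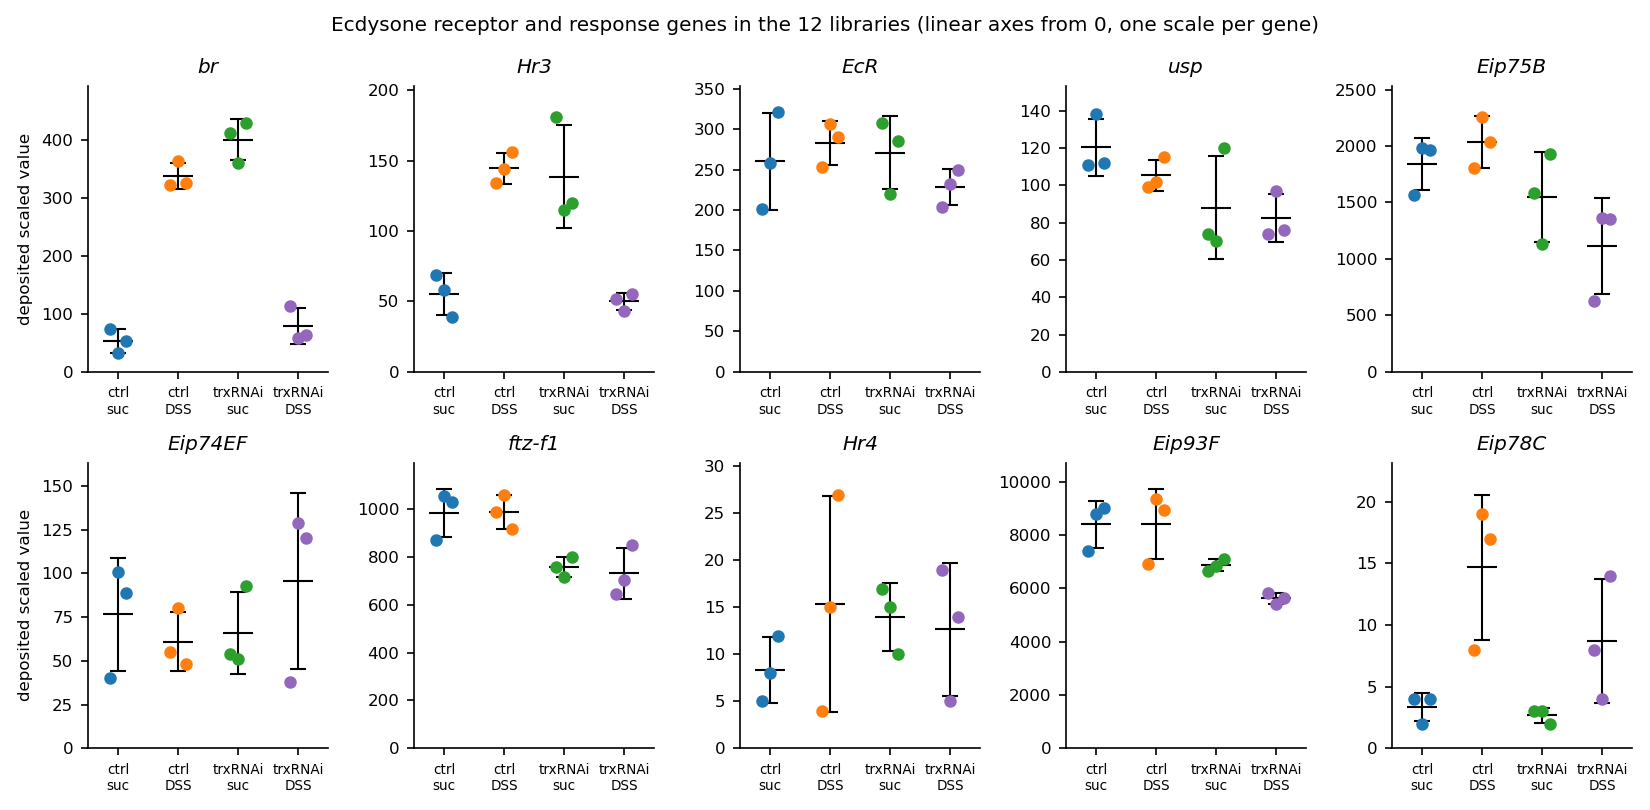
Deposited scaled values of the 10 ecdysone genes (vertical axes, linear from 0, one scale per gene) in the 4 groups (horizontal axis, ctrl for control and suc for sucrose). Points are the 3 libraries of a group, and bars give the mean and SD; br and Hr3 are high in control DSS and trxRNAi sucrose, with no overlap with the other 6 libraries, whereas EcR lies between 201 and 321 in all 12.

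Hr3 shares its exons with other genes in the annotation. All 6466 exon bases of CG12912 and all 6071 of CG46321, which lie on the same strand, are also exon bases of Hr3, and the 2 genes end 1459 bases before the outermost Hr3 end, at an end that Hr3 transcripts also use. CG46321 had values of 65, 50 and 29 in control sucrose, 137, 161 and 142 in control DSS, 192, 115 and 172 in trxRNAi sucrose and 47, 59 and 52 in trxRNAi DSS. In no library was its value below 0.744 or above 1.43 times that of Hr3. For CG12912 that ratio lay between 0.66 and 1.19. The sources used here do not state how reads that match several genes were counted, and the value of Hr3 alone is uncertain for that reason. Summed over the 3 genes, the locus had values of 196, 147 and 97 in control sucrose, 389, 430 and 401 in control DSS, 513, 324 and 399 in trxRNAi sucrose and 138, 153 and 150 in trxRNAi DSS. The sum showed the same split into pairs of groups, with a difference of 1.51 ± 0.23 between genotypes under sucrose and of -1.46 ± 0.23 under DSS, and the sum was chosen after the values had been seen. Its split follows from those of the 3 genes, and a shared read may be in it more than once. The sum therefore does not settle the value of Hr3 alone.

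**Figure D2:**
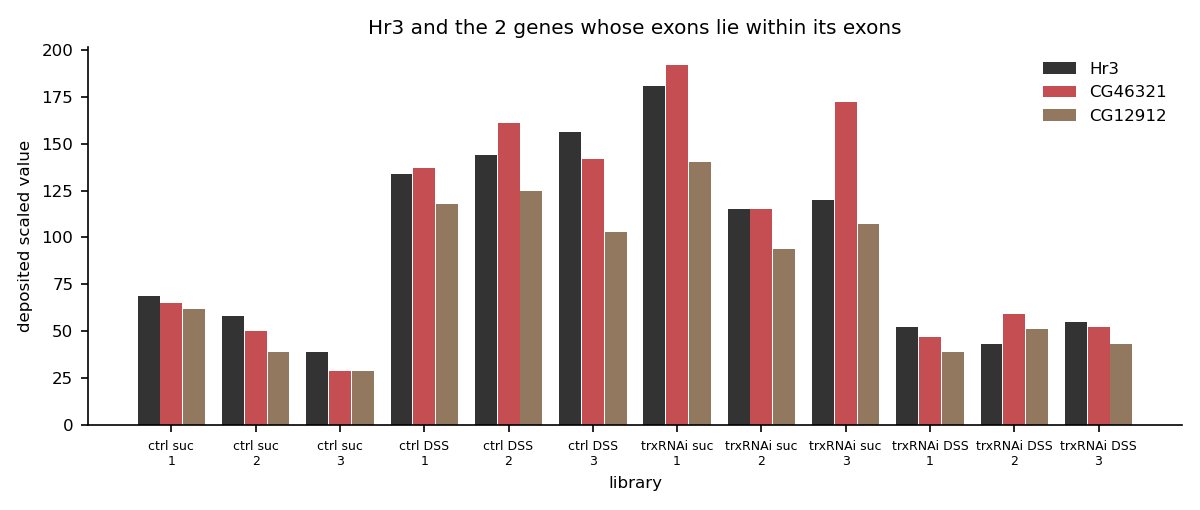
Deposited scaled values (vertical axis, linear from 0) of Hr3, CG46321 and CG12912 in each of the 12 libraries (horizontal axis, group and replicate number). The 3 bars of a library stand close together, and all 3 genes are higher in the 6 libraries of control DSS and trxRNAi sucrose.

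The receptor genes did not share that pattern. EcR (FBgn0000546, chromosome 2R, 6087873 to 6169087, minus strand), which encodes the hormone-binding subunit, had values of 201, 258 and 321 in control sucrose, 253, 306 and 290 in control DSS, 307, 220 and 285 in trxRNAi sucrose and 204, 232 and 249 in trxRNAi DSS. Each group overlapped the next in order of level, control DSS lay wholly above trxRNAi DSS, and the highest group mean (283 ± 27.2 in control DSS) was 1.24 times the lowest (228 ± 22.7 in trxRNAi DSS). Between genotypes EcR differed by 0.07 ± 0.20 under sucrose and by -0.31 ± 0.20 under DSS. The 95% interval of the first ran from -0.34 to 0.48.

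The partner gene usp (FBgn0003964, chromosome X, 2038798 to 2042311, minus strand), the fly homologue of the vertebrate retinoid X receptors, had values of 111, 138 and 112 in control sucrose, 99, 102 and 115 in control DSS, 74, 70 and 120 in trxRNAi sucrose and 74, 97 and 76 in trxRNAi DSS. Its neighbours in order of level overlapped, with group means of 120 ± 15.3, 105 ± 8.50, 88.0 ± 27.8 and 82.3 ± 12.7 in the order just given. Control sucrose and control DSS both lay wholly above trxRNAi DSS. The usp difference between genotypes was -0.48 ± 0.23 under sucrose, where trxRNAi replicate 3 lay among the control values, and -0.36 ± 0.23 under DSS. It lies inside the bounds of Actn on the same strand, with which it shares 265 exon bases, and over the 12 libraries the log2 values of usp and Actn had a Pearson correlation of 0.045.

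The other early genes differed less between groups than br. Eip75B (FBgn0000568, chromosome 3L, 17950953 to 18064696, minus strand) encodes a heme-binding nuclear receptor that opposes Hr3. Its values were 1570, 1985 and 1964 in control sucrose, 1801, 2261 and 2033 in control DSS, 1587, 1134 and 1930 in trxRNAi sucrose and 627, 1361 and 1357 in trxRNAi DSS. All 3 values of trxRNAi DSS lay below the 6 control values, and trxRNAi sucrose overlapped with each of the other groups. Under DSS the Eip75B difference between genotypes was -0.94 ± 0.27, or 1.92-fold, and it was -0.57 without trxRNAi DSS replicate 1, the library at 627.

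Eip74EF (FBgn0000567, chromosome 3L, 17558672 to 17619325, minus strand), an ETS-domain factor, had values of 40, 101 and 89 in control sucrose, 55, 80 and 48 in control DSS, 54, 51 and 93 in trxRNAi sucrose and 38, 129 and 120 in trxRNAi DSS. All 4 groups overlapped, and the spread within them was wide, with a coefficient of variation between 27.6 and 52.4%. Differences of Eip74EF between genotypes were -0.16 ± 0.45 under sucrose and 0.48 ± 0.45 under DSS, and the second was 1.04 without trxRNAi DSS replicate 1. The 95% interval of the first, from -1.13 to 0.80, leaves room for a difference in either direction.

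The later genes ftz-f1 and Eip93F stood lower in both trxRNAi groups than in both control groups. The nuclear receptor gene ftz-f1 (FBgn0001078, chromosome 3L, 18750607 to 18801309, minus strand), which makes prepupal tissues competent for the next ecdysone pulse, had values of 868, 1052 and 1027 in control sucrose, 985, 1056 and 914 in control DSS, 755, 715 and 799 in trxRNAi sucrose and 643, 701 and 847 in trxRNAi DSS. Its 6 control values all stood above its 6 trxRNAi values, an order whose share among all tested genes was not computed. The difference between genotypes was -0.37 ± 0.15 under sucrose and -0.44 ± 0.15 under DSS, and that between feeds was 0.01 ± 0.15 in control and -0.06 ± 0.15 in trxRNAi.

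Eip93F (FBgn0264490, chromosome 3R, 21949114 to 22014539, plus strand), a factor that directs adult fates and the death of larval tissues at metamorphosis, had values of 7379, 8802 and 8996 in control sucrose, 6899, 9361 and 8922 in control DSS, 6658, 6830 and 7113 in trxRNAi sucrose and 5823, 5423 and 5625 in trxRNAi DSS. Group means were 8392 ± 883 and 8394 ± 1313 in the control groups under sucrose and DSS, and 6867 ± 230 and 5624 ± 200.0 in the trxRNAi groups in that order. The 3 libraries of trxRNAi DSS lay below the other 9, and trxRNAi sucrose lay below control sucrose but overlapped with control DSS through replicate 1 of the latter. Between genotypes Eip93F differed by -0.28 ± 0.14 under sucrose and by -0.57 ± 0.14 under DSS, a 1.48-fold difference. The summed enteroendocrine markers given above, and 7 of the 8 genes in the sum, were also lower in both trxRNAi groups, and their part in the levels of ftz-f1 and Eip93F was not tested.

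Hr4 and Eip78C were near the lower limit of detection. Hr4 (FBgn0264562, chromosome X, 1941940 to 2007956, plus strand), a nuclear receptor of the early-late class, had values of 5, 8 and 12 in control sucrose, 4, 15 and 27 in control DSS, 17, 15 and 10 in trxRNAi sucrose and 19, 5 and 14 in trxRNAi DSS. Its groups all overlapped, and the difference of 0.66 ± 0.58 between genotypes under sucrose had a 95% interval from -0.57 to 1.89. The nuclear receptor gene Eip78C (FBgn0004865, chromosome 3L, 21226609 to 21266503, plus strand) had values of 4, 2 and 4 in control sucrose, 8, 19 and 17 in control DSS, 3, 3 and 2 in trxRNAi sucrose and 8, 4 and 14 in trxRNAi DSS. Each DSS group stood above the sucrose group of the same genotype, by 1.60 ± 0.54 in control and by 1.09 ± 0.54 in trxRNAi. With a pseudocount of 8 in place of 2 the first of these was 0.97, and at such low values no finer order could be read.

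**Figure D3:**
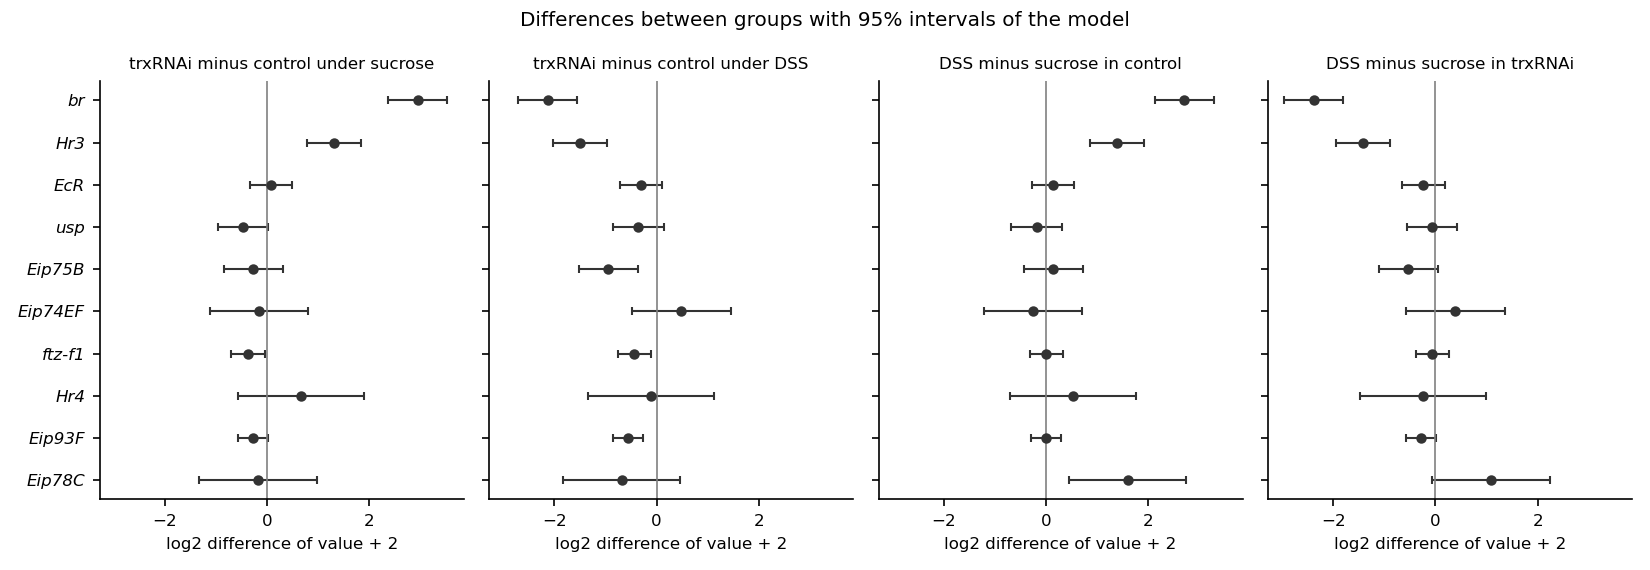
Log2 differences of value plus 2 (horizontal axis) for the 10 genes (vertical axis) in 4 comparisons of groups, with points for the model estimate and bars for its 95% interval. The br and Hr3 intervals lie away from 0 in all 4 panels and on opposite sides of it in the panels for sucrose and DSS. Those of EcR, usp, Eip74EF and Hr4 include 0 throughout. The genes were chosen with these values known, so the intervals are a description and no test.

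As a count over the set, 2 of the 10 genes (br and Hr3) were past an adjusted p of 0.05 between genotypes under sucrose, where 4.68% of all tested genes were, 2.36% being higher. Under DSS 4 of the 10 (br, Hr3, Eip75B and Eip93F) were past it, all lower in the libraries labelled trxRNAi, where 9.44% of tested genes were past it in either direction and 5.62% in that direction. Without control DSS replicate 2 that count was 2. Between feeds br and Hr3 were past it in control, beside 3.08% of tested genes (1.73% higher), and in trxRNAi, beside 3.55% (2.58% lower). The genotype by feed interaction had br and Hr3 past it, beside 8.86% of tested genes (5.25% with a negative interaction). The libraries of the compared groups did not overlap for 4 of the 10 genes between genotypes under sucrose, beside 23.4% of tested genes, and for 7 under DSS, beside 25.5%. Between feeds they did not overlap for 3 in control, beside 16.1%, and for 4 in trxRNAi, beside 21.1%. Since the choice of the 10 genes used these contrasts, nothing is read from the counts. The median difference over the 10 genes was -0.17 under sucrose and -0.50 under DSS between genotypes, beside 0.015 and -0.0055 over all tested genes. The comparisons of a genotype under sucrose and of the feeds in control share the control sucrose libraries, and others share groups in the same way.

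Across the 12 libraries, br and Hr3 had a Pearson correlation of 0.909 on the log2 scale, the highest of the 45 pairs among the 10 genes. After the group means were taken off it was 0.207, so most of the likeness lay between groups. Eip75B and ftz-f1 had 0.817 over the libraries and 0.724 within groups, and Eip75B and Eip74EF had 0.367 and 0.894. These correlations are descriptions over 12 libraries that share depth and group structure. In position, br, Hr4 and usp lie on chromosome X within one stretch, with 43 measured genes between br and Hr4 and 4 between Hr4 and usp. Eip74EF, Eip75B and ftz-f1 lie in one stretch of chromosome 3L, with 60 measured genes between the first pair and 85 between the second.

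Among the other genes tested, those most like br across the 12 libraries were the pseudogene CR6434 (Pearson r = 0.973), Hey (0.957), sle (0.952), Jabba (0.944) and ImpL2 (0.942). Of these, Hey and sle reached 10 only in control DSS and trxRNAi sucrose. They passed the filter only through the groups where br was high, so their likeness to br is a description. Hey, a basic helix-loop-helix repressor, had values of 3, 0 and 0 in control sucrose, 15, 16 and 37 in control DSS, 21, 13 and 29 in trxRNAi sucrose and 4, 0 and 0 in trxRNAi DSS. Jabba, which anchors histones to lipid droplets in embryos, had values from 360 to 501 in control sucrose, 812 to 1029 in control DSS, 860 to 1092 in trxRNAi sucrose and 567 to 670 in trxRNAi DSS. At the other end stood mdu (-0.973), CG17778 (-0.960), the homeobox gene exex (-0.959), CG34376 (-0.958) and the noncoding lncRNA:CR34335 (-0.951). The homeobox gene exex had values from 142 to 205 in control sucrose, 33 to 39 in control DSS, 28 to 55 in trxRNAi sucrose and 76 to 195 in trxRNAi DSS. Of the cell type markers, E(spl)mgamma-HLH and spdo among 8 progenitor markers, pros among 8 enteroendocrine markers and fne among 5 neuron markers were also above in all 6 libraries of control DSS and trxRNAi sucrose, and none of 10 enterocyte markers was. Their part in the level of br was not tested.

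**Figure D4:**
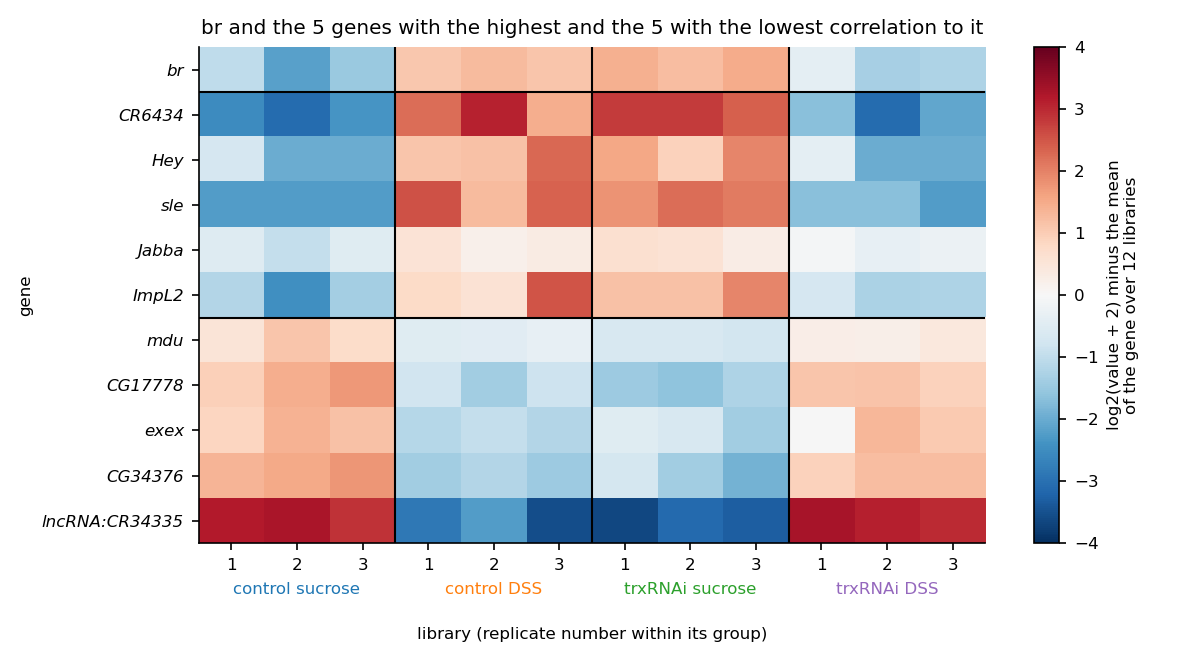
Log2(value + 2) of each gene minus its mean over the 12 libraries (colour) for br, the 5 genes with the highest and the 5 with the lowest Pearson correlation to br (rows), in the 12 libraries by group (columns). Rows below the second line mirror the row of br, with lncRNA:CR34335 between 76749 and 102145 in control sucrose and trxRNAi DSS and between 837 and 2206 in the other 2 groups.

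The nearest genes to the remaining members were different ones. Hr3 was closest to Con (0.966), E(spl)mgamma-HLH (0.963) and the exon-sharing CG46321 (0.96), and Eip93F to spen (0.94), Usp2 (0.915) and Unr (0.905). For ftz-f1 they were bun (0.938), CG9727 (0.91) and sqa (0.888), for Eip75B AGO1 (0.926), VhaM9.7-a (0.925) and tna (0.919), and for Eip74EF Pat1 (0.969), snoRNA:Or-CD11c (0.966) and Mpcp2 (0.962). EcR was closest to hh (0.936), Golgin104 (0.914) and CG12099 (0.913), usp to Ddx56 (0.886), Dh31 (0.872) and CG31064 (0.857), Hr4 to east (0.876), GstE8 (0.851) and CG42372 (0.839), and Eip78C to Nubp1 (0.925), CG12541 (0.849) and CG13373 (0.746).

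With earlier results known, 69 other genes of the wider pathway were listed by function, with Cth outside the function of its list. Their p-values are therefore not those of genes chosen blind to the data. Of the 69, 66 had values and 41 were tested. Between genotypes 1 rose and 1 fell under sucrose, beside 4.68% of all tested genes, and 3 fell under DSS, beside 9.44%. Between feeds 1 rose and 1 fell in control, beside 3.08%, and 1 fell in trxRNAi, beside 3.55%, and the interaction had 1 in each direction, beside 8.86%. At an unadjusted p under 0.05 there were 13 of the 41 under sucrose and 10 under DSS between genotypes, beside 18.3% and 22.4% of all tested genes. There were 11 between feeds in control and 5 in trxRNAi, beside 14.4% and 12.6%, and 13 for the interaction, beside 20.8%. Nothing particular to these lists is read from the counts. The median difference over the 41 genes was -0.18 under sucrose and -0.13 under DSS between genotypes.

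The gene that passed in every comparison was ImpL2, an ecdysone-inducible gene whose secreted product binds insulin-like peptides and damps insulin signalling. ImpL2 had values of 190, 77 and 167 in control sucrose, 735, 643 and 2469 in control DSS, 968, 984 and 1676 in trxRNAi sucrose and 269, 180 and 184 in trxRNAi DSS. As with br, the 6 libraries of control DSS and trxRNAi sucrose all stood above the other 6. Between genotypes it rose under sucrose by 3.10 ± 0.52, or 8.56-fold (limma adjusted p = 0.00995), and fell under DSS by 2.33 ± 0.52, or 5.04-fold (adjusted p = 0.0214). Between feeds it rose by 2.95 ± 0.52 in control (adjusted p = 0.0167) and fell by 2.48 ± 0.52 in trxRNAi (adjusted p = 0.0303). The interaction was -5.43 ± 0.74 (adjusted p = 0.00141) and passed in the 20 alternatives run, as the difference under sucrose did in 21. Without control DSS replicate 3, the library at 2469, the ImpL2 difference under DSS was -1.72 (3.29-fold), that between feeds in control 2.33 (5.04-fold) and the interaction -4.82, and all 3 still passed. Under DSS the call ended without trxRNAi DSS replicate 2 (adjusted p = 0.0717) or 3 (0.0726). That between feeds in control ended without control sucrose replicate 2 (0.05001) and with only the 2 groups compared (0.143), and that in trxRNAi without any of the 6 trxRNAi libraries, with adjusted p from 0.0691 to 0.117.

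Other ecdysone-inducible genes gave 1 further call among 13 tested. Dronc, an initiator caspase gene, had values of 136, 165 and 98 in control DSS and 73, 85 and 68 in trxRNAi DSS and fell by 0.78 ± 0.23 (limma adjusted p = 0.0374). The Dronc call ended without any of the 5 libraries control DSS replicates 1 and 2 and trxRNAi DSS replicates 1, 2 and 3, with adjusted p from 0.0573 to 0.158, and without trxRNAi sucrose replicate 1 (0.0501). It ended also with no low-value filter (0.0615), with neither intensity trend nor robust variance (0.0572) and with only the 2 groups compared (0.0921). Blimp-1, a repressor that times ftz-f1, differed by -0.41 ± 0.14 under sucrose (adjusted p = 0.106), and chinmo, whose product opposes br in larval tissues, by 0.85 ± 0.38 (adjusted p = 0.232). In that comparison hid, from the same list, differed by -0.96 ± 0.31 (limma adjusted p = 0.0947).

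In the list of hormone synthesis, import and breakdown, with 6 genes tested, the 1 gene that passed was Cth (Eip55E), which encodes a cystathionine gamma-lyase, was first found as ecdysone-inducible and acts in none of those steps. The other 5, E23, Npc1a, Oatp74D, ecd and sro, did not pass in any comparison. Cth had values of 974, 876 and 1053 in control sucrose, 648, 597 and 531 in control DSS, 564, 622 and 478 in trxRNAi sucrose and 552, 913 and 638 in trxRNAi DSS. It fell by 0.80 ± 0.19 between genotypes under sucrose (limma adjusted p = 0.0182) and by 0.71 ± 0.19 between feeds in control (adjusted p = 0.0474), and the interaction was 1.02 ± 0.26 (adjusted p = 0.0216). The first call ended without control sucrose replicate 3 (0.0752) or trxRNAi sucrose replicate 1 (0.0623) or 3 (0.0841) and with neither intensity trend nor robust variance (0.0618). The second ended in 14 of 21 alternatives, the highest adjusted p being 0.183 without control sucrose replicate 3. The interaction ended in 5 of 20, the highest adjusted p being 0.0853 after rescaling each library to the mean total, among them also without control sucrose replicate 3 (0.0592), trxRNAi sucrose replicate 3 (0.0615) or trxRNAi DSS replicate 2 (0.0652). E23, an ABC transporter gene that limits ecdysone responses, differed by -0.63 ± 0.19 under sucrose (adjusted p = 0.0678), and the importer gene Oatp74D (EcI) had values between 11 and 54 and no call.

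Among 5 tested genes of other nuclear receptors, Hr96, a receptor for lipids and foreign compounds, fell under DSS by 0.99 ± 0.27 (limma adjusted p = 0.0273), from 109, 88 and 80 in control DSS to 62, 36 and 41 in trxRNAi DSS. The call ended without control DSS replicate 1 (0.117) or 2 (0.0585) or trxRNAi DSS replicate 2 (0.123) or 3 (0.0985) and with only the 2 groups compared (0.0588). Hr51, in the same list, differed between genotypes under sucrose by 2.09 ± 0.62 with no call (limma adjusted p = 0.0637). None of 11 receptor partners and cofactors passed limma in a comparison. Between genotypes an unadjusted p under 0.05 was met by 1 under sucrose and 4 under DSS, beside 18.3% and 22.4% of all tested genes. Between feeds 4 met it in control and 2 in trxRNAi, beside 14.4% and 12.6%. For the interaction 5 met it, beside 20.8%, and nothing is read from these counts. The coactivator gene tai differed by 0.44 ± 0.18 under DSS (adjusted p = 0.152) and the corepressor gene Smr by -0.40 ± 0.14 (adjusted p = 0.0956). None of 6 juvenile hormone genes passed either, with 5 at an unadjusted p under 0.05 under sucrose, beside the 18.3% of all tested genes, and 1 under DSS, beside the 22.4%. Kr-h1, a zinc finger gene that answers juvenile hormone, differed by -0.52 ± 0.19 there (adjusted p = 0.136) and by -0.50 ± 0.19 under DSS (adjusted p = 0.113).

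**Figure D5:**
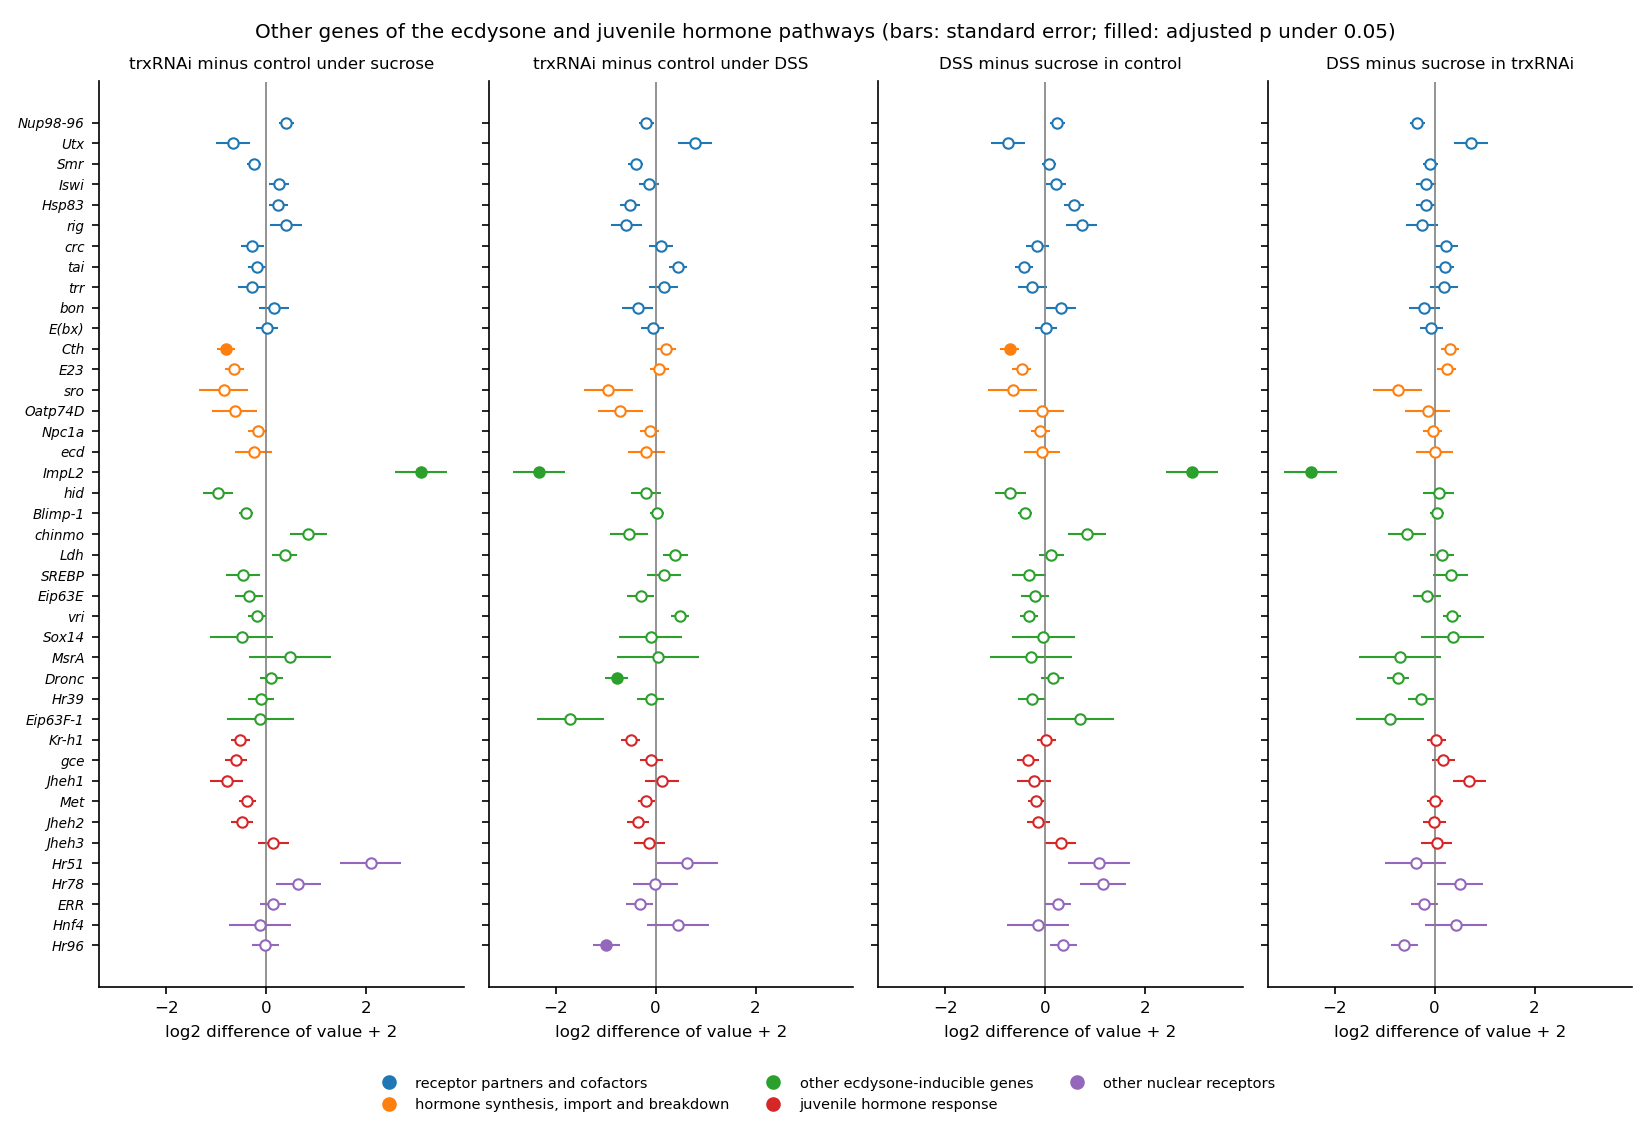
Log2 differences of value plus 2 (horizontal axis) with their SE for the 41 tested genes of the wider pathway (vertical axis, coloured by list) in 4 comparisons. Filled points passed an adjusted p of 0.05, and ImpL2 is the 1 gene filled in all 4 panels.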

How the data were processed

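The authors deposited 1 value per gene and library, treated here as a score. The submitters' processing notes name the dm6 build, the aligners HISAT2 and Bowtie2, bcl2fastq, and the packages limma, edgeR, DESeq and DESeq2, with no roles. For the counter, annotation, strand use and scaling factors nothing is given in the sources used here. The values themselves show whole counts multiplied by 1 factor per library and rounded. A search between 0.7 and 1.5, tested on simulated data, placed the factors between 0.826 and 1.33, clear in 10 of 12 libraries, which implies between 4432323 and 7234917 reads. Such scaling hides any change in the total amount of RNA, and counting error at low values is that of about as many reads.

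Groups and replicate numbers came from the sample titles. No label ties replicates to separate flies, and p-values measure only the spread between these samples. The scale was log2(value + 2), on which differences of low genes come out too small, for the 8399 genes that reached 10 in 3 or more libraries. One limma model (limma 3.58.1, R 4.3.3) with a mean per group, an intensity trend and robust variance was fitted over the 12 libraries, with Benjamini-Hochberg adjustment over all tested genes and a threshold of 0.05. The model was tested on simulated data.

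Symbols and dm6 positions came from an Ensembl annotation and its name table, which matched 17520 of 17617 identifiers. RefSeq synonyms linked Cth and MsrA to their older names. The 10 genes, the lists and the tests were chosen with earlier results of these data known. Named beside the 10 genes and trx were up to 4 called genes per list and comparison with the smallest p, and the genes most correlated with each of the 10 on the log2 scale. Other genes named without a call were chosen after their values were seen.

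Alternatives were median-of-ratios rescaling, rescaling to the mean total, 2 other filters, 2 other pseudocounts, a replicate block, only the groups compared, no trend or robust variance, and leaving out each library. Rescaling to the mean total put the median difference of all genes at 0.103, -0.135, 0.154 and -0.0784 in the comparisons of 2 groups and at -0.23 in the interaction, and moved the called genes under sucrose from 198 higher of 393 to 278 higher of 428 and those under DSS from 321 higher of 793 to 200 higher of 794. In the control feed comparison the higher calls went from 145 of 259 to 198 of 264, and in the interaction from 303 of 744 to 166 of 766.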

Additional observations from a re-analysis of the deposited data

Results flagged for a closer look

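In br and in Hr3 the genotype difference went opposite ways under the 2 feeds, with every trxRNAi library above every control library under sucrose and below under DSS as labelled. The genotype difference under DSS minus that under sucrose was -5.08 for br and -2.80 for Hr3 on the log2 scale. Both are given as a description with no p-value, since the genes were chosen with them known. In 2 genes of the wider pathway, whose lists were made with earlier results known, the genotype difference differed between feeds by the limma interaction. For ImpL2 it was -5.43 (adjusted p = 0.00141), with the same opposite order of libraries as br. For Cth it was 1.02 (adjusted p = 0.0216), with trxRNAi below control in 3 of 3 libraries under sucrose and overlapping it under DSS. Under DSS the target trx did not differ by label (limma adjusted p = 0.772), so the part of each of these under DSS rests on labels that the target did not bear out. Under sucrose trx fell by label (-1.05, limma adjusted p = 0.00356), and its own interaction was 0.92 (limma adjusted p = 0.0416). Groups of 3 libraries are too small for a search for single outlying samples.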

How the results depend on the processing

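Differences of the 10 genes moved by less than the spread between replicates in 1017 of 1020 recomputed values, and no called one changed sign. The 3 that moved were Eip78C between feeds in control (0.97 with a pseudocount of 8) and the interactions of ftz-f1 (-0.29) and Eip93F (-0.50) with each library rescaled to the mean total. Many of the 1020 could not move. A difference of group means is unchanged by another filter, the variance settings, the replicate block or loss of a library outside the comparison. Uncalled differences did change sign with 1 library left out. Among them were Hr4 under DSS (between -0.74 and 0.40) and EcR between genotypes under sucrose (between -0.10 and 0.23). The br difference between genotypes lay between 2.64 and 3.21 under sucrose and between -2.43 and -1.96 under DSS when 1 library was left out, that between feeds between 2.40 and 2.97 in control and between -2.67 and -2.21 in trxRNAi, and its interaction between -5.37 and -4.78. For br, the other alternatives also gave values within the spread between replicates. Eip78C could not be fitted where 1 of its 3 libraries above the filter was left out, nor, like Hr4, with the filter of 30.

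Counts of calls depended more on the settings. With 1 library left out, genes called numbered between 183 and 582 under sucrose, 532 and 930 under DSS, 133 and 247 between feeds in control, 167 and 382 in trxRNAi, and 534 and 748 for the interaction, beside 393, 793, 259, 298 and 744. Under sucrose there were 208 without control sucrose replicate 2 and 188, 183 and 233 without trxRNAi sucrose replicate 1, 2 or 3. Between feeds in control there were 133 without control sucrose replicate 2 or 3 and 139 without control DSS replicate 1, and in trxRNAi 167 and 193 without trxRNAi sucrose replicate 1 or 2 and 184 without trxRNAi DSS replicate 2. Calls among the 41 pathway genes lay between 1 and 4, 0 and 5, 0 and 2, 0 and 2, and 1 and 5 in that order, beside 2, 3, 2, 1 and 2. Of the 10 genes, 2 to 4 were past the threshold under DSS with 1 library left out, and 2 to 5 in the other alternatives. In each other comparison 2 were past it throughout. With only the 2 groups compared, which leaves fewer samples for the spread, 105 genes were called between feeds in control, 0 pathway genes there, 1 pathway gene under DSS, and 2 of the 10 genes under DSS. Without intensity trend and robust variance, 1 pathway gene was called under sucrose, between feeds in control and in the interaction, and 2 of the 10 genes under DSS. Between feeds in control 1 pathway gene was called after rescaling to the mean total or with no filter, and the interaction had 4 after that rescaling. The causes of these moves were not tested. The replicate number as a block gave 458, 865, 299, 311 and 784 called genes and left the counts of the 10 genes as they were. Residuals of same-numbered libraries correlated above 0.1 in 7 of 18 pairs (median 0.0722), and those of differently numbered libraries in 6 of 36 (median -0.0407). With 3 libraries per group, these correlations cannot settle whether same-numbered libraries belong together. The main model left the number out, and the block is given beside it.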
